A study of Mus musculus with 35 samples.

Results

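The 10 genes described here encode the NF-κB subunits (Nfkb1, Nfkb2, Rel, Rela and Relb) and proteins that restrain or redirect NF-κB (Nfkbia, Nfkbib, Nfkbie, Nfkbiz and Tnfaip3). They were taken by symbol, and each symbol matched a single Ensembl identifier, so that they were 10 of the 47069 genes measured in each library. NF-κB is a family of dimeric transcription factors. In a resting macrophage most of these dimers are bound by inhibitory IκB proteins in the cytoplasm, and ligands such as LPS set off the degradation of IκB, so that the dimers enter the nucleus and bind DNA. Among the genes they switch on are Nfkbia and Tnfaip3, which then shut the pathway down again, and ligands of the glucocorticoid receptor are known to oppose many NF-κB target genes.

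The cells were bone marrow-derived macrophages (BMDM) of C57BL/6 mice, grown in medium conditioned by L929 cells, a fibroblast line that secretes the macrophage growth factor. They were wild type (WT) or labelled AMPKa1-/-, a deletion of the alpha 1 catalytic subunit of the energy-sensing kinase AMPK, and were treated for 24 h with vehicle, 100 nM dexamethasone (Dex, a synthetic glucocorticoid), 100 ng/ml LPS (bacterial lipopolysaccharide), LPS + Dex, 1 µg/ml DAMPs (damage-associated molecular patterns, whose makeup the labels do not give) or DAMPs + Dex. RNA was taken from whole cultures, and expression was given as FPKM, the fragments of a gene divided by its length in kilobases and by the library's fragments, which compares levels between genes per length. There were 3 libraries in each of the 12 groups except WT LPS, which had replicates 2 and 3 only (replicate 1 was not analysed here), giving 17 WT libraries and 18 labelled AMPKa1-/-. Library totals were estimated from the commonest step of low FPKM values times exon length, taken as 1 fragment. By this estimate each library held between 15837203 and 31955298 fragments, with a median of 19973568. In such bulk samples, fewer cells of a type and less RNA per cell cannot be told apart.

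Prkaa1, which encodes the deleted kinase subunit, was read first as a check of the genotype labels. In vehicle it stood at 15.9, 11.8 and 15.3 FPKM in WT and at 14.8, 16.5 and 15.4 FPKM in the libraries labelled AMPKa1-/-. With Dex it was 26.1, 23.2 and 19.1 FPKM in WT and 21.5, 14.0 and 20.4 FPKM in those labelled AMPKa1-/-. With LPS it was 15.3 and 10.4 FPKM in WT and 9.05, 11.2 and 10.5 FPKM in those labelled AMPKa1-/-. The gene was therefore read in every library, and its level overlapped between the genotypes in these 3 treatments. With LPS + Dex it was 20.5, 13.7 and 8.59 FPKM in WT and 12.5, 12.9 and 9.65 FPKM in those labelled AMPKa1-/-. With DAMPs it was 17.9, 12.4 and 11.0 FPKM in WT and 10.7, 15.8 and 16.4 FPKM in those labelled AMPKa1-/-, and with DAMPs + Dex 20.9, 12.5 and 19.5 FPKM against 21.8, 20.0 and 24.0 FPKM. The genotype differences of Prkaa1 lay between -0.29 and 0.33 on the log2 scale, with adjusted p between 0.35 and 1 (limma). Which part of the gene was deleted is not given in the sources used here. A gene-level FPKM does not show whether a single exon is missing, so these values do not settle the labels.

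The labelled cell type was checked against its markers. All 7 macrophage markers had a mean above 1 FPKM, led by Lyz2, the lysozyme of myeloid cells, at a mean of 24097 FPKM, and their summed level ran from 12948 to 39154 FPKM over the libraries. T and B cell markers summed to at most 2.05 FPKM, with 5 of 6 genes under 1 FPKM in every library and Cd79a the most abundant. The neutrophil markers summed to between 1.85 and 1199.8 FPKM, with 5 of 10 at a mean of at least 1 FPKM and S100a8 the most abundant at a mean of 106 FPKM. Of these markers, Elane, Cxcr2, Mpo, Retnlg and Ly6g were under 1 FPKM in every library, and of the dendritic cell markers Zbtb46, Clec9a, Flt3 and Siglech were. The fibroblast markers summed to between 1.16 and 24.7 FPKM, led by Col1a2, with Pdgfra under 1 FPKM throughout.

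The genes are spread over the genome. In GRCm38 with GENCODE M21, the subunit genes are Nfkb1 (ENSMUSG00000028163) at chr3:135584655-135691547 on the minus strand, Nfkb2 at chr19:46304320-46312385 on the plus strand, Rel at chr11:23736847-23770970 on the minus strand, Rela at chr19:5637483-5648130 on the plus strand and Relb at chr7:19606217-19629438 on the minus strand. The inhibitor genes are Nfkbia at chr12:55489410-55492647 on the minus strand, Nfkbib at chr7:28758251-28767512 on the minus strand, Nfkbie at chr17:45555703-45563169 on the plus strand, Nfkbiz at chr16:55811375-55838899 on the minus strand and Tnfaip3 at chr10:19000910-19015657 on the minus strand. Exons of Nfkb2 share 299 bases with Psd and 531 bases with AC114539.1 on the opposite strand. Those of Nfkbib share 42 bases with Sirt2 and 314 bases with Ccer2. Whether reads were counted by strand is not given in the sources used here, so reads from these stretches cannot be assigned to either gene.

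Because several of these genes are known as targets of the factor that they regulate, the bases upstream of their start sites are shown with their NF-κB motifs. RefSeq promoter windows (GRCm38.p6, 250 bases before to 50 after the start) were matched for 7 of the 10 genes, while Nfkb1, Relb and Nfkbiz had no entry. The NF-κB consensus was searched on both strands, and capitals mark the bases of a match. The 7 genes had 10 windows, of which 7, from 5 genes, held a match, while 4.51% of all 32851 windows of the same length did. Of these 7 windows 3 belong to Nfkb2, and 2 of the 3 overlap and share a match, so the windows are not independent. For Nfkbia, which encodes IκBα, the whole 250 bases upstream of the start are printed, since that gene was called in the most comparisons below (chr12:55492648-55492897, minus strand).
Nfkbia: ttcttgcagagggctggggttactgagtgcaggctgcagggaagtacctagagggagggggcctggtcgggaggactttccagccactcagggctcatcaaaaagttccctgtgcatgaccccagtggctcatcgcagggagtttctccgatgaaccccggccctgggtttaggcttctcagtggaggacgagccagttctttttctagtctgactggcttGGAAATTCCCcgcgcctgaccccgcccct
The match lies 29 to 20 bases before the start. A short stretch around 1 match in each of the other 4 genes follows for comparison, from Tnfaip3 (chr10:19015411-19015431, minus strand), Rel (chr11:23771042-23771070, minus strand), Nfkbie (chr17:45555585-45555612, plus strand) and Nfkb2 (chr19:46304689-46304717, plus strand).
Tnfaip3: atttccatcGGAAATCCCCct
Rel: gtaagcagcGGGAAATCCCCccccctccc
Nfkbie: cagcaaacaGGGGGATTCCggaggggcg
Nfkb2: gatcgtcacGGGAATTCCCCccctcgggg
These matches begin 12, 92, 106 and 39 bases before the start in the order shown. Further matches are not printed, of which Tnfaip3 had 1 at positions -125 to -116 relative to its start, and Nfkb2 had 1 at -11 to -2 relative to the same start and others in its 2 further windows. Windows of Nfkbib and Rela and a further window of Tnfaip3 (chr10:19011914-19012213) held no match to these letters. The full palindromic glucocorticoid receptor motif, searched by its consensus, was in none of the 10 windows of these genes and in 0.475% of all windows. A match is a description of letters and not evidence of binding.

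With LPS most of the 10 genes rose against vehicle. In WT, 8 rose and 1 fell, and in the libraries labelled AMPKa1-/- the counts were also 8 and 1, by limma with Benjamini-Hochberg adjustment over the 11354 genes with a mean of at least 1 FPKM (log2 fold changes are on the log2(FPKM + 1) scale, which understates changes of low genes). Of all tested genes, 55.7% were called in WT and 64.3% in the libraries labelled AMPKa1-/-, so a call alone was common. Calls in the higher direction were rarer, at 19.9% and 20.2%, than in the lower one, at 35.8% and 44.1%. The median log2 fold change over the 10 genes was 1.70 in WT and 1.65 in those labelled AMPKa1-/-, beside -0.19 and -0.30 over all genes. Centring every library on one median moved the share of higher genes among the called ones from 35.7% to 46.3% in WT and from 31.4% to 49.0% in those labelled AMPKa1-/-.

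Among the DNA-binding subunits, the precursor genes Nfkb1 and Nfkb2 rose with LPS. Nfkb1, whose product is cut to the small partner of RelA, was at 50.2, 45.8 and 49.6 FPKM in WT vehicle and at 147 and 134 FPKM in WT LPS. The groups did not overlap, and the log2 fold change was 1.51 ± 0.15 (SE, adjusted p = 1.86e-09). In the libraries labelled AMPKa1-/- it went from 55.1, 52.6 and 53.8 FPKM to 111, 125 and 162 FPKM, a log2 fold change of 1.27 ± 0.14 (adjusted p = 4.33e-09). Nfkb2, the precursor of the non-canonical pathway, was at 34.3, 35.6 and 38.2 FPKM in WT vehicle and at 177 and 188 FPKM in WT LPS (log2 2.31 ± 0.25, adjusted p = 8.36e-09). Labelled AMPKa1-/-, it stood at 45.6, 36.1 and 42.6 FPKM without and at 117, 138 and 307 FPKM with LPS. Replicate 3 was high within that LPS group, and the 2 groups were still apart (log2 2.02 ± 0.22, adjusted p = 9.12e-09).

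The 3 Rel-type subunits, which carry the activation domain, parted from each other. Rel, encoding c-Rel, was the lowest of the 10 genes in WT vehicle at 5.98, 4.34 and 6.54 FPKM, and it stood at 12.4 and 9.52 FPKM with LPS. It rose by 0.86 ± 0.24 in WT (adjusted p = 0.00316) and by 0.64 ± 0.21 in the libraries labelled AMPKa1-/- (adjusted p = 0.0106). Without WT LPS replicate 2 the WT value was 0.68 with an adjusted p of 0.0659, and without LPS replicate 3 labelled AMPKa1-/- the other was 0.49 with an adjusted p of 0.0721 (0.53 and 0.0679 after rescaling to one FPKM sum). Rela, encoding the main activating subunit, moved the other way, from 39.6, 43.7 and 38.6 FPKM to 26.0 and 28.0 FPKM in WT. Its log2 fold change was -0.57 ± 0.17 in WT (adjusted p = 0.0057) and -0.60 ± 0.15 in those labelled AMPKa1-/- (adjusted p = 0.0012). Relative to the median of all genes it was -0.38 and -0.30, and after median centring it was no longer called (adjusted p = 0.0694 and 0.111). Leaving out WT LPS replicate 2 also ended the WT call of Rela (adjusted p = 0.0543). Relb, the partner of the Nfkb2 product, was not called, at 25.4, 27.7 and 29.7 FPKM in WT vehicle and 31.3 and 33.6 FPKM in WT LPS (log2 0.23 ± 0.24, adjusted p = 0.437).

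The cytoplasmic inhibitors all rose with LPS, Nfkbia by far the most. Nfkbia stood at 43.6, 45.2 and 49.3 FPKM in WT vehicle and at 541 and 640 FPKM in WT LPS. That is a log2 fold change of 3.65 ± 0.13 (adjusted p = 4.24e-19), and in the libraries labelled AMPKa1-/-, with 484, 573 and 562 FPKM under LPS, it was 3.42 ± 0.11 (adjusted p = 8.91e-20). Under LPS its transcript was thus the most abundant of the 10 per length. Nfkbib, encoding IκBβ, went from 23.8, 32.0 and 24.4 FPKM to 87.0 and 117 FPKM in WT (log2 1.89 ± 0.20, adjusted p = 5.73e-09) and rose by 2.2 ± 0.18 in those labelled AMPKa1-/- (adjusted p = 2.59e-11). Nfkbie, encoding IκBε, went from 13.7, 16.8 and 17.1 FPKM to 30.3 and 41.0 FPKM in WT (log2 1.11 ± 0.24, adjusted p = 0.000308) and rose by 0.95 ± 0.22 in those labelled AMPKa1-/- (adjusted p = 0.000405).

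The nuclear IκB protein and the ubiquitin-editing enzyme rose as well. Nfkbiz encodes IκBζ, which acts in the nucleus as a cofactor for secondary inflammatory genes. It was at 10.1, 8.63 and 11.3 FPKM in WT vehicle and at 69.5 and 56.7 FPKM in WT LPS (log2 2.54 ± 0.29, adjusted p = 1.68e-08), and it rose by 2.28 ± 0.26 in the libraries labelled AMPKa1-/- (adjusted p = 1.13e-08). Tnfaip3, whose product removes activating ubiquitin chains upstream of the IκB kinase, had the widest span of the 10 genes over the 12 group means, 4.13 on the log2 scale. It was at 13.8, 8.23 and 14.1 FPKM in WT vehicle and at 165 and 166 FPKM in WT LPS (log2 3.71 ± 0.23, adjusted p = 7.51e-14). In those labelled AMPKa1-/- it went from 9.13, 8.96 and 9.40 FPKM to 97.4, 125 and 151 FPKM (log2 3.60 ± 0.20, adjusted p = 9.21e-15).

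Library by library, 9 of the 10 genes were higher in both WT LPS libraries than in every WT vehicle library, Relb among them, and Rela was lower. Of all tested genes, 26.5% were higher and 45.6% lower in this way. In the libraries labelled AMPKa1-/-, 8 were higher in every LPS library, beside 22.3% of all tested genes, while Rela and Relb overlapped. Marker sums moved with LPS too. The summed macrophage markers, led by Lyz2, were 20960, 26807 and 21060 FPKM in WT vehicle and 17230 and 13978 FPKM in WT LPS. Of the 7 macrophage markers, 2 were higher and 4 lower with LPS in each genotype. The summed dendritic cell markers went from at most 0.819 FPKM to 38.7 and 112 FPKM, nearly all of it Ccr7, a chemokine receptor that activated macrophages also express. The part of these markers in the results was not tested.

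**Figure D1:**
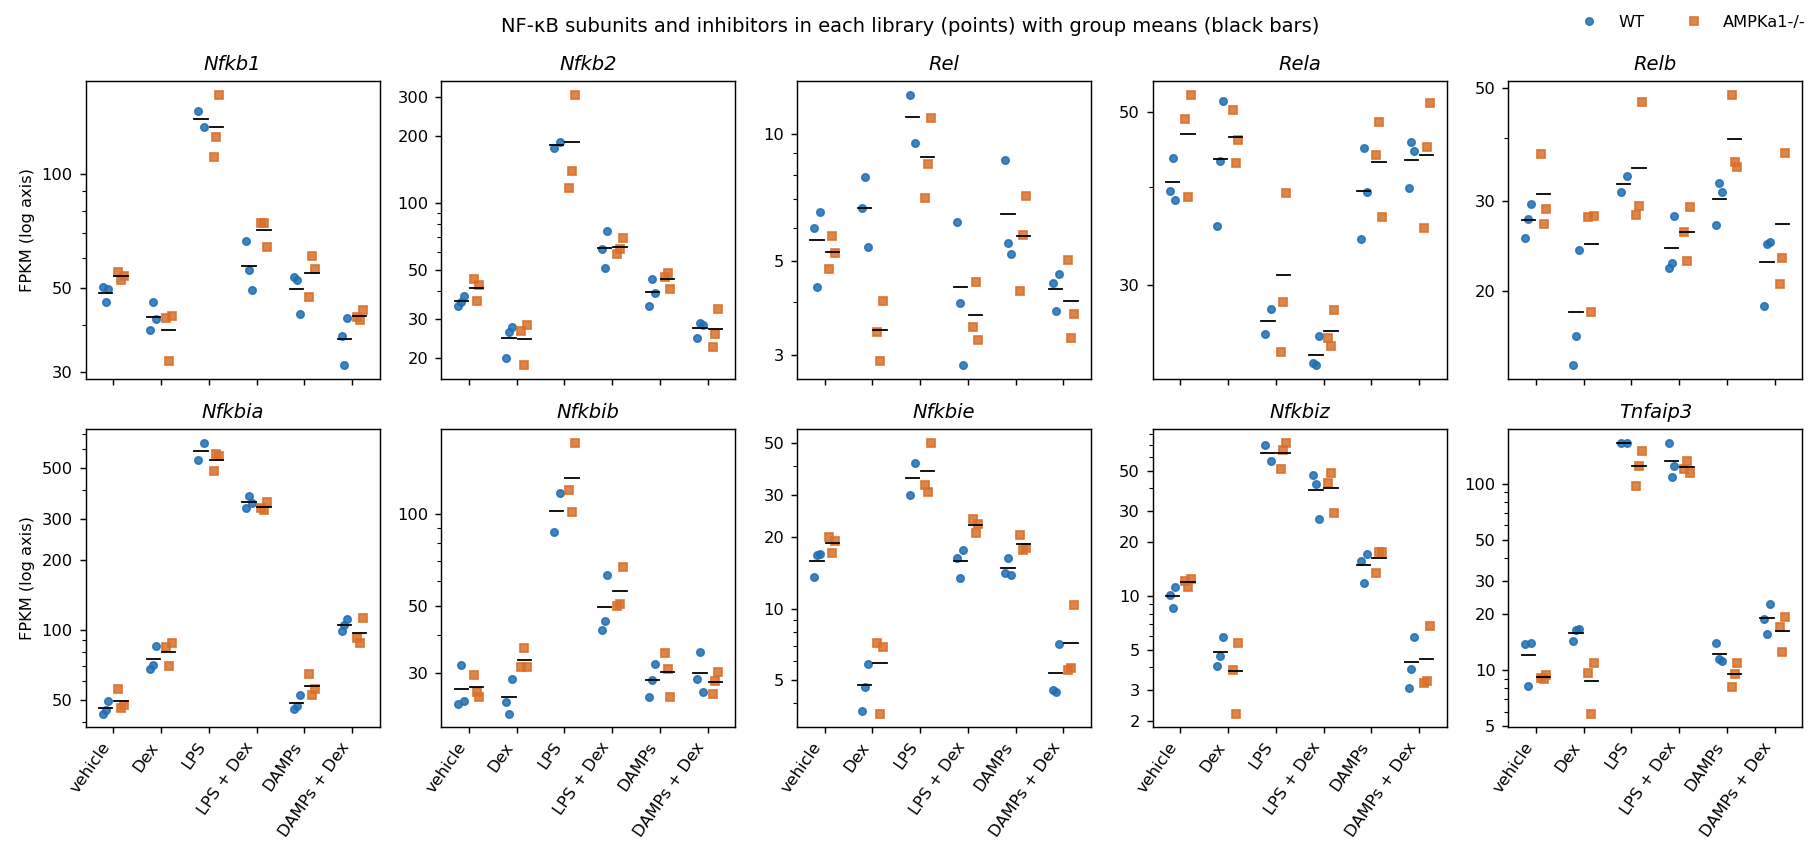
FPKM (log axis) of each of the 10 genes in all 35 libraries, by treatment, with WT as blue circles, libraries labelled AMPKa1-/- as orange squares and bars at the group means. Nfkbia, Nfkbiz, Nfkb1, Nfkb2 and Nfkbib stood highest under LPS in both genotypes. Tnfaip3 did so in WT, while LPS and LPS + Dex overlapped in the libraries labelled AMPKa1-/-. Rela stood lowest under LPS + Dex, and Relb varied within a narrow band.

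Dex added to LPS lowered most of the 10 genes. Against LPS alone, 6 of the 10 genes were lower in WT and 7 in the libraries labelled AMPKa1-/-, and no gene was higher. Of all tested genes, 34.1% and 37.7% were called, 17.5% and 18.4% in the lower direction and 16.6% and 19.3% in the higher one. With only the compared groups in the fit, 2065 of 11032 tested genes were called in WT instead of 3871 of 11354, while the count of the 10 genes was again 6. The median over the 10 genes was -0.88 in WT and -0.68 in those labelled AMPKa1-/-, beside -0.03 and 0.01 over all genes. Rescaling the libraries to one FPKM sum moved the share of higher genes among the called ones from 48.7% to 35.8% in WT and from 51.2% to 37.6% in those labelled AMPKa1-/-. In WT, all 10 genes were lower in each of the 3 LPS + Dex libraries than in both LPS libraries, beside 24.4% of all tested genes. In those labelled AMPKa1-/- 7 were, beside 22.4%.

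In WT, the 3 subunit genes that LPS had raised had the largest falls with added Dex. Nfkb1 was at 66.6, 55.6 and 49.2 FPKM in WT LPS + Dex, below both LPS libraries (log2 -1.29 ± 0.15, adjusted p = 9.16e-08), and fell by 0.88 ± 0.14 in the libraries labelled AMPKa1-/- (adjusted p = 5.63e-06). Nfkb2 was at 61.8, 51.1 and 74.6 FPKM in WT LPS + Dex (log2 -1.55 ± 0.25, adjusted p = 1.5e-05) and fell by 1.42 ± 0.22 in those labelled AMPKa1-/- (adjusted p = 8.91e-06). Rel was at 6.18, 3.99 and 2.84 FPKM in WT LPS + Dex, which overlaps its vehicle level (log2 against LPS -1.20 ± 0.24, adjusted p = 0.000208). In those labelled AMPKa1-/- it stood at 3.50, 4.46 and 3.26 FPKM with LPS + Dex, a log2 change of -1.04 ± 0.21 (adjusted p = 0.000248). Rela and Relb were not called in either genotype, with values of -0.14 and -0.41 in WT.

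The inhibitors differed in how far they came down. Nfkbia remained at 335, 377 and 351 FPKM in WT and at 335, 329 and 356 FPKM in the libraries labelled AMPKa1-/-. These levels lay under every LPS library (log2 -0.73 ± 0.13, adjusted p = 3.71e-05 in WT, and -0.66 ± 0.11, adjusted p = 2.68e-05 in those labelled AMPKa1-/-) and far above vehicle. Nfkbib was at 41.6, 44.5 and 62.9 FPKM in WT (log2 -1.03 ± 0.20, adjusted p = 0.000171) and fell by 1.19 ± 0.18 in those labelled AMPKa1-/- (adjusted p = 4.37e-06). Nfkbie was at 16.3, 13.5 and 17.8 FPKM in WT (log2 -1.11 ± 0.24, adjusted p = 0.000622), and its change in those labelled AMPKa1-/- was -0.71 ± 0.22 (adjusted p = 0.0106). That last call was lost without LPS replicate 3 labelled AMPKa1-/- (log2 -0.50, adjusted p = 0.101).

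Tnfaip3 was not called between LPS + Dex and LPS, and Nfkbiz lay near the threshold with a fall about as large as that of Nfkbia. Tnfaip3 was at 165, 109 and 124 FPKM in WT LPS + Dex (log2 -0.34 ± 0.23, adjusted p = 0.269) and at 121, 133 and 114 FPKM in the libraries labelled AMPKa1-/- (log2 0.00 ± 0.20, adjusted p = 0.998). Nfkbiz was at 47.7, 42.5 and 26.8 FPKM in WT LPS + Dex (log2 -0.71 ± 0.29, adjusted p = 0.0558, and -0.64 with an adjusted p of 0.0389 after median centring). In those labelled AMPKa1-/- it stood at 42.8, 48.7 and 29.2 FPKM (log2 -0.65 ± 0.26, adjusted p = 0.047), a call present in 17 of the 35 fits that each left out 1 library and lost with a pseudocount of 0.1 (adjusted p = 0.0742) or no filter (adjusted p = 0.101).

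Set against vehicle, LPS + Dex left a high level of some of these genes and not of others. In WT 5 genes were higher and 1 lower than in vehicle, and in the libraries labelled AMPKa1-/- 6 were higher and 1 lower, with 54.2% and 57.4% of all tested genes called. The share of tested genes called higher was 17.2% and 16.7%, and that called lower 37% and 40.8%. Tnfaip3 was higher by 3.37 ± 0.20 in WT (adjusted p = 6.21e-14) and by 3.60 ± 0.20 in those labelled AMPKa1-/- (adjusted p = 1.48e-14). Nfkbia was higher by 2.92 ± 0.11 (adjusted p = 5.49e-18) and 2.76 ± 0.11 (adjusted p = 1.95e-17). Nfkbiz, Nfkbib and Nfkb2 were also higher in both genotypes, by 1.83, 0.86 and 0.76 in WT. The Nfkb2 call in WT was lost on rescaling to one FPKM sum (0.51, adjusted p = 0.0562). Nfkb1 was called higher in those labelled AMPKa1-/- (0.39 ± 0.14, adjusted p = 0.016, and 0.13 with an adjusted p of 0.531 after rescaling). The WT value was 0.22 (adjusted p = 0.171), and after median centring Nfkb1 was called in WT too (0.45, adjusted p = 0.000409). The call labelled AMPKa1-/- was lost without LPS + Dex replicate 1 or 2 (adjusted p = 0.0548 and 0.0528), and the Nfkb2 call in the libraries labelled AMPKa1-/- (0.61 ± 0.22, adjusted p = 0.0229) without vehicle replicate 2 or LPS + Dex replicate 3 (adjusted p = 0.0908 and 0.0797) and after rescaling (adjusted p = 0.187). Nfkbie had a log2 difference from vehicle of 0.00 ± 0.22 in WT (adjusted p = 0.997), while in those labelled AMPKa1-/- it was at 23.9, 20.8 and 22.9 FPKM, above the vehicle libraries at 20.1, 17.2 and 19.2 FPKM (log2 0.24, adjusted p = 0.346, and 0.53 with an adjusted p of 0.0423 after median centring). Rela had a log2 difference of -0.71 ± 0.15 in WT (adjusted p = 0.000286). Over all genes the median of this comparison was -0.23 in WT and -0.28 in those labelled AMPKa1-/-, and the share of higher genes among the called ones was 31.7% in WT, 50.3% after median centring and 18.4% after rescaling. The shares in those labelled AMPKa1-/- were 29.0%, 50.9% and 17.0%.

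Summed neutrophil markers moved with LPS + Dex, and S100a8, a calcium-binding protein of myeloid cells, carried most of the sum. S100a8 was at 617, 478 and 1147 FPKM in WT LPS + Dex and at 307, 301 and 581 FPKM in the libraries labelled AMPKa1-/-. Of the 10 neutrophil markers 5 were tested, and for LPS + Dex against vehicle 2 of them were higher and 1 was lower in each genotype, while the 5 named above stayed under 1 FPKM in every library. The summed dendritic cell markers were at most 1.67 FPKM with LPS + Dex, and the macrophage markers summed to 27941, 28168 and 31867 FPKM in WT. Against vehicle, 2 of the 7 macrophage markers were higher and 2 lower in WT, and 2 higher and 1 lower in the libraries labelled AMPKa1-/-. With LPS alone the neutrophil markers summed to 161 and 126 FPKM in WT. The part of these markers in the results was not tested.

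**Figure D2:**
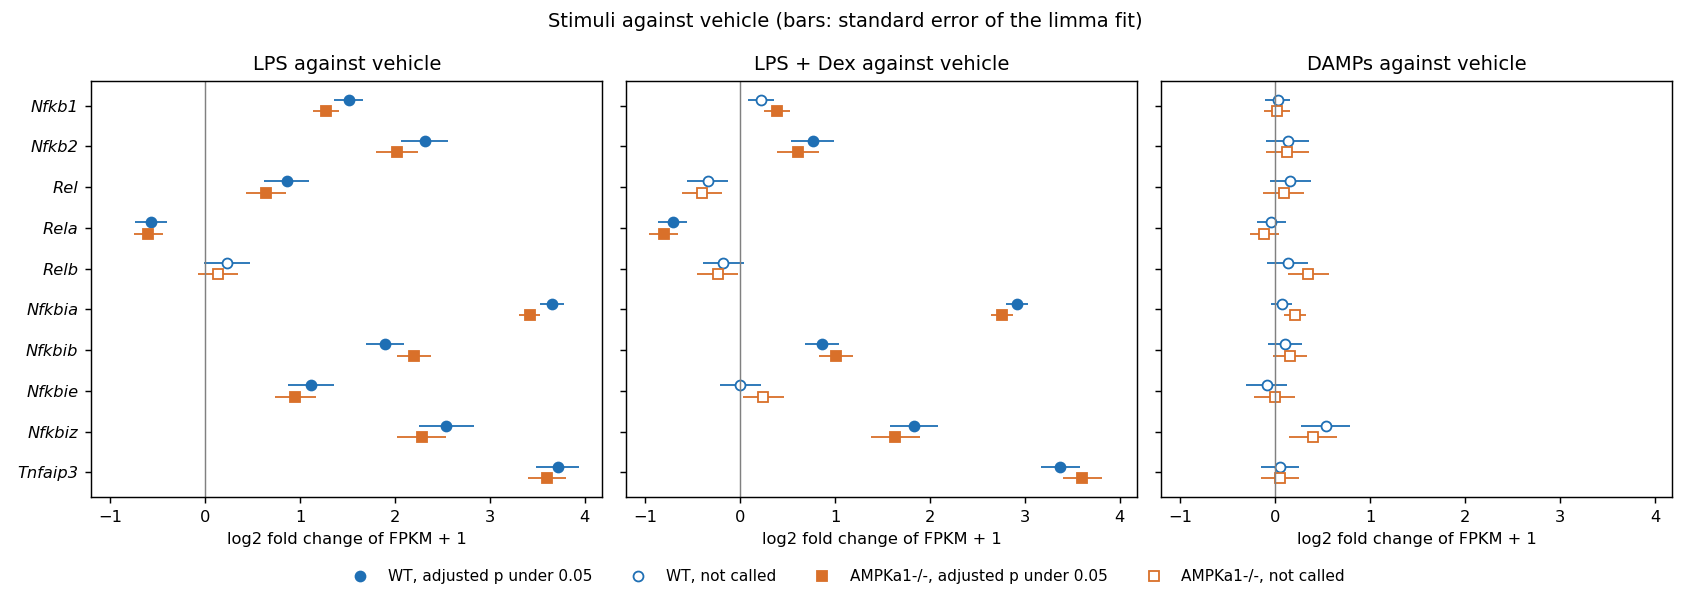
Log2 fold change on the log2(FPKM + 1) scale, with SE bars, of the 10 genes against vehicle for LPS, LPS + Dex and DAMPs, with WT as blue circles and libraries labelled AMPKa1-/- as orange squares, filled where the adjusted p was under 0.05. Tnfaip3 and Nfkbia stay far right with LPS + Dex, Nfkb1, Rel and Nfkbie come back toward 0, and every DAMPs symbol is open.

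Dex without a stimulus split the inhibitors. In WT 1 gene rose and 3 fell, and in the libraries labelled AMPKa1-/- 1 rose and 4 fell, with 30.9% and 27.9% of all tested genes called. By direction, 15.9% and 11.9% of tested genes were higher and 14.9% and 16% lower. Nfkbia rose, from 43.6, 45.2 and 49.3 FPKM to 67.7, 70.9 and 85.5 FPKM in WT (log2 0.68 ± 0.11, adjusted p = 3.88e-05), and by 0.69 ± 0.11 in those labelled AMPKa1-/- (adjusted p = 3.39e-05). Nfkbie fell, to 3.73, 4.68 and 5.88 FPKM in WT and to 7.17, 3.62 and 6.92 FPKM in those labelled AMPKa1-/-, all under the lowest vehicle library of their genotype. Of all tested genes, 22.1% in WT and 26.1% in those labelled AMPKa1-/- were lower in this way. The log2 changes of Nfkbie were -1.56 ± 0.22 (adjusted p = 2.98e-06) and -1.57 ± 0.22 (adjusted p = 2.7e-06). The transcripts of IκBα and IκBε, related inhibitors, thus moved in opposite directions with Dex.

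Nfkbiz also fell with Dex alone, to 4.09, 4.64 and 5.91 FPKM in WT (log2 -0.91 ± 0.26, adjusted p = 0.00819) and to 3.85, 2.21 and 5.45 FPKM in the libraries labelled AMPKa1-/- (log2 -1.48 ± 0.26, adjusted p = 6.1e-05). Relb fell in WT (log2 -0.60 ± 0.21, adjusted p = 0.0328), a call lost without Dex replicate 1 or 2 or vehicle replicate 2 or 3 (adjusted p between 0.0808 and 0.158). Nfkb1 and Nfkb2 fell in those labelled AMPKa1-/- by 0.48 ± 0.14 (adjusted p = 0.00861) and 0.76 ± 0.22 (adjusted p = 0.0118). Both calls were lost without Dex replicate 2 labelled AMPKa1-/- (-0.35, adjusted p = 0.0838, and -0.58, adjusted p = 0.092). In WT the values of these genes were -0.21 (adjusted p = 0.246) and -0.55 (adjusted p = 0.0645), and both were called there after median centring (-0.30, adjusted p = 0.0226, and -0.64, adjusted p = 0.0406). Rel, Rela, Nfkbib and Tnfaip3 were not called in either genotype. In those labelled AMPKa1-/- Rel was at -0.49 (adjusted p = 0.0847, and 0.0384 with only the compared groups in the fit). Among the called genes of those labelled AMPKa1-/- 42.8% were higher, and 53.0% after quantile normalization.

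DAMPs alone called 0 of the 10 genes in either genotype by limma, where 2.01% and 4.13% of all tested genes were called (1.22% and 1.89% higher, 0.793% and 2.24% lower). The WT share rests on 228 called genes, which were 94 with only WT libraries in the fit and 1 with only the compared groups. In the libraries labelled AMPKa1-/- 45.8% of the called genes were higher, and 56.9% with a filter at 5 FPKM. At an unadjusted p under 0.05 the counts among the 10 genes were 1 in WT, Nfkbiz, and 0 in the libraries labelled AMPKa1-/-. Nfkbiz was at 15.8, 11.8 and 17.3 FPKM with DAMPs in WT, all above its vehicle libraries (log2 0.53 ± 0.26, adjusted p = 0.511). In the libraries labelled AMPKa1-/- it was at 13.4, 17.7 and 17.7 FPKM, also above every vehicle library. Of all tested genes, 5.99% in WT and 6.7% in those labelled AMPKa1-/- were higher in this way. Nfkbia was at 45.5, 47.0 and 52.3 FPKM with DAMPs in WT, overlapping vehicle. Against DAMPs, LPS gave 8 genes higher and 1 lower in both genotypes (54.4% and 61.3% of tested genes called, 20.7% and 22% higher and 33.7% and 39.3% lower), with Nfkbia higher by 3.58 in WT and 3.21 in those labelled AMPKa1-/-. The all-gene medians of LPS against DAMPs were -0.16 and -0.22, and the share of higher genes among the called ones moved from 38.0% to 48.1% and from 35.9% to 49.5% on median centring. Rela, the lower gene, was then no longer called (adjusted p = 0.0924 and 0.18), and Rel was not after rescaling (adjusted p = 0.0701 and 0.106). In WT, Rel and Rela also lost the call without LPS replicate 2 (adjusted p = 0.165 and 0.0801) or DAMPs replicate 2 (both 0.054), and Rel without DAMPs replicate 3 (adjusted p = 0.0622). In those labelled AMPKa1-/-, Rel lost it without DAMPs replicate 1 or LPS replicate 3 (adjusted p = 0.152 and 0.143), and Rela without LPS replicate 1 (adjusted p = 0.0755).

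Dex given with DAMPs called genes in both directions, as without a stimulus. Against DAMPs alone, 2 genes rose and 3 fell in WT, and 2 rose and 4 fell in the libraries labelled AMPKa1-/-, beside 24.3% and 25.3% of all tested genes. Of those tested, 11.7% and 13.1% were higher and 12.6% and 12.2% lower. Nfkbia rose to 98.8, 105 and 111 FPKM in WT (log2 1.11 ± 0.11, adjusted p = 1.7e-08) and to 92.5, 87.4 and 112 FPKM in those labelled AMPKa1-/- (log2 0.75 ± 0.11, adjusted p = 9.91e-06). Tnfaip3 rose as well, to 18.9, 15.6 and 22.6 FPKM in WT (log2 0.59 ± 0.20, adjusted p = 0.0328) and by 0.70 ± 0.20 in those labelled AMPKa1-/- (adjusted p = 0.0107). The WT call of Tnfaip3 was lost without DAMPs replicate 2 or 3 or DAMPs + Dex replicate 1 or 3 (adjusted p between 0.072 and 0.153), and the other without DAMPs replicate 1 or DAMPs + Dex replicate 3 (adjusted p = 0.0601 and 0.0724). Nfkbiz fell to 3.05, 3.94 and 5.89 FPKM in WT (log2 -1.61 ± 0.26, adjusted p = 1.85e-05) and by 1.71 ± 0.26 in those labelled AMPKa1-/- (adjusted p = 8.65e-06). Nfkbie fell by 1.33 ± 0.22 and 1.32 ± 0.22 (adjusted p = 2.72e-05 and 2.97e-05).

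The remaining calls of this comparison were of subunit genes. Nfkb1 fell in WT by 0.42 ± 0.14 (adjusted p = 0.0209), a call lost without DAMPs replicate 1 or 2 or DAMPs + Dex replicate 2 (adjusted p between 0.0816 and 0.147). In the libraries labelled AMPKa1-/-, Nfkb2 fell by 0.73 ± 0.22 (adjusted p = 0.0163) and Relb by 0.57 ± 0.21 (adjusted p = 0.0499), the last called in 10 of the 35 fits that each left out 1 library. The Nfkb2 call was lost without DAMPs + Dex replicate 1 or DAMPs replicate 2 (adjusted p = 0.0899 and 0.0604). Nfkb1 in those labelled AMPKa1-/- was at -0.36 (adjusted p = 0.0536, and 0.00224 after median centring). Nfkb2 in WT was at -0.52 (adjusted p = 0.0929, and 0.0191 with only WT libraries in the fit). Rel was called lower in both genotypes after median centring (adjusted p = 0.0364 in WT and 0.0371 in those labelled AMPKa1-/-). The WT count was 3 of 10 without WT DAMPs replicate 2. Against vehicle, DAMPs + Dex gave 2 genes higher and 3 lower in both genotypes (24.9% and 26.1% of tested genes called, 11% and 11.2% higher and 13.9% and 14.9% lower), with Nfkbia and Tnfaip3 the higher pair and Nfkbie and Nfkbiz among the lower ones. Nfkbia was higher by 1.17 in WT and 0.96 in those labelled AMPKa1-/-, and Nfkbie lower (-1.42 and -1.33). The third lower gene was Nfkb1 in WT (-0.40, adjusted p = 0.0291, lost without vehicle replicate 1 or 3 or DAMPs + Dex replicate 1 or 2) and Nfkb2 in those labelled AMPKa1-/- (-0.60, adjusted p = 0.0465, called in 15 of the 35 fits). After median centring the call labelled AMPKa1-/- was Nfkb1 as in WT (-0.33, adjusted p = 0.0118) and no longer Nfkb2 (adjusted p = 0.0634). The WT call of Tnfaip3 (0.64, adjusted p = 0.0196) was lost without vehicle replicate 2 (adjusted p = 0.172) or DAMPs + Dex replicate 3 (adjusted p = 0.104).

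Markers of other cell types moved with DAMPs + Dex against DAMPs as well. Of 3 tested fibroblast markers 2 were higher in WT (median 1.25), and the list summed to 9.42, 14.1 and 18.5 FPKM against 5.19, 1.34 and 8.22 FPKM. Of 5 tested neutrophil markers 2 were lower in the libraries labelled AMPKa1-/- (median -0.95), with sums of 13.8, 15.8 and 8.94 FPKM against 43.3, 14.9 and 20.6 FPKM. Of the 7 macrophage markers 1 was higher and 3 lower in each genotype, as with Dex alone. The part of these markers in the results was not tested.

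**Figure D3:**
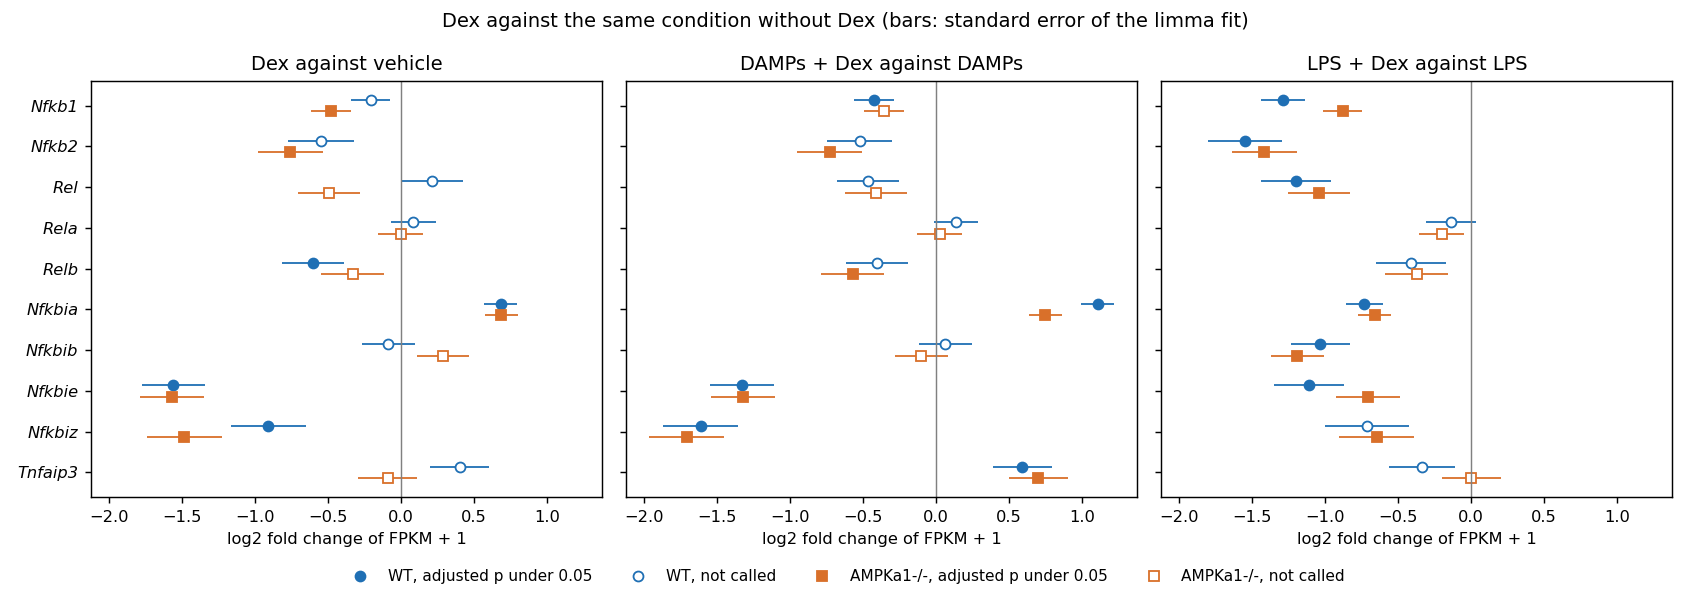
Log2 fold change with Dex, on the log2(FPKM + 1) scale with SE bars, of the 10 genes without a stimulus, with DAMPs and with LPS, with WT as blue circles and libraries labelled AMPKa1-/- as orange squares, filled where the adjusted p was under 0.05. Nfkbia lies right of 0 without a stimulus and with DAMPs and left of 0 with LPS, while Nfkbie lies left of 0 in all 3 settings.

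Whether the effect of Dex differed with LPS present was tested as the difference between the 2 Dex effects, a comparison added after the data had been seen. In WT 5 of the 10 genes differed, all with a lower Dex effect under LPS, and in the libraries labelled AMPKa1-/- 2 had a lower and 1 a higher effect, beside 32% and 28.4% of all tested genes. The effect was lower under LPS for 17.1% and 12.8% of tested genes and higher for 14.9% and 15.5%. For Nfkbia the difference was -1.41 ± 0.17 in WT (adjusted p = 3.36e-07) and -1.35 ± 0.16 in those labelled AMPKa1-/- (adjusted p = 2.43e-07), so its Dex effect had opposite signs in the 2 settings. Nfkb1 and Rel differed in WT by -1.08 ± 0.20 (adjusted p = 0.000173) and -1.41 ± 0.32 (adjusted p = 0.00121). The WT calls of Nfkb2 and Nfkbib (adjusted p = 0.024 and 0.00844) were lost on median centring (adjusted p = 0.0698 and 0.0851), and the WT count was 3 without WT LPS replicate 3. The Nfkb2 call was also lost without LPS replicate 2, LPS + Dex replicate 2 or Dex replicate 2 or 3 (adjusted p between 0.0518 and 0.0673). In WT the share of higher genes among the called ones was 46.5%, 56.7% after median centring and 30.6% after rescaling. Nfkbib differed in those labelled AMPKa1-/- by -1.48 ± 0.25 (adjusted p = 5.28e-05), and Nfkbie by 0.86 ± 0.31 (adjusted p = 0.0355), a call kept in 28 of the 35 fits that each left out 1 library and lost on median centring (adjusted p = 0.0568). The same difference for Nfkbie in WT was 0.45 (adjusted p = 0.297), and for Tnfaip3 in WT it was -0.74 (adjusted p = 0.0623). These are differences of log2 values, and they share libraries with the comparisons above.

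The level orders of the 2 feedback inhibitors summarise these treatments. Mean Nfkbia in WT ran from 590.62 FPKM with LPS through 354 FPKM with LPS + Dex, 105 FPKM with DAMPs + Dex and 74.7 FPKM with Dex to 48.3 FPKM with DAMPs and 46.0 FPKM in vehicle. Only the last pair of neighbours overlapped between libraries. The same order held in the libraries labelled AMPKa1-/-, where DAMPs + Dex and Dex overlapped too. Mean Tnfaip3 in WT ran from 166 FPKM with LPS and 133 FPKM with LPS + Dex to 19.0 FPKM with DAMPs + Dex, 15.8 FPKM with Dex, 12.2 FPKM with DAMPs and 12.03 FPKM in vehicle. In WT, DAMPs + Dex overlapped Dex, and DAMPs overlapped vehicle. The order of mean Tnfaip3 differed in those labelled AMPKa1-/-, where LPS at 124 FPKM and LPS + Dex at 123 FPKM overlapped. Dex was the lowest group there at 8.80 FPKM, overlapping vehicle at 9.16 FPKM. No response of Tnfaip3 was called different between the genotypes.

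The genotype was compared for each gene within each treatment. Of 60 comparisons between genotypes within a treatment, 2 were called, and 6 had an unadjusted p under 0.05. Both were in Dex, where 26.5% of all tested genes were called, 15.5% lower and 11% higher in the libraries labelled AMPKa1-/-, against 0.432% in vehicle, 0.766% in LPS, 0.669% in LPS + Dex, 0.731% in DAMPs and 1.06% in DAMPs + Dex. In Dex the share of higher genes among the called ones was 41.4%, 59.1% after median centring and 21.0% after rescaling. Median centring also moved it from 54.0% to 69.9% in LPS and from 50% to 60.8% in LPS + Dex, where 87 and 76 genes were called. The share went the other way under some other settings, to 26.0% in LPS without a filter, to 0% of 3 called genes in LPS with the compared groups alone, and to 39.7% in LPS + Dex with a pseudocount of 0.1. Rel was at 6.68, 7.92 and 5.41 FPKM in WT Dex and at 3.40, 2.91 and 4.04 FPKM in the libraries labelled AMPKa1-/- (log2 -0.78 ± 0.21, adjusted p = 0.0141). Tnfaip3 was at 14.4, 16.4 and 16.7 FPKM in WT Dex and at 9.66, 5.86 and 10.9 FPKM in those labelled AMPKa1-/- (log2 -0.82 ± 0.20, adjusted p = 0.00926). The groups did not overlap for either gene, as for 30.7% of all tested genes in the lower direction, and both calls were lost without Dex replicate 2 labelled AMPKa1-/- (adjusted p = 0.0966 and 0.103) or without WT Dex replicate 2 (adjusted p = 0.0983 and 0.0591). Markers of other cell types moved in the same comparison. All 5 tested neutrophil markers were higher in the Dex libraries labelled AMPKa1-/-, with a median log2 difference of 1.87, and the list summed to 47.9, 32.0 and 23.1 FPKM against 6.39, 2.24 and 6.95 FPKM in WT. Of 3 tested fibroblast markers 2 were lower (median -1.64), with sums of 3.90, 4.52 and 2.99 FPKM against 11.9, 15.1 and 24.7 FPKM. Their part in the result was not tested. Tests of whether the 5 responses differed between the genotypes called 0 of 50 by limma, with 2 at an unadjusted p under 0.05, and 0% of all tested genes. At an unadjusted p under 0.05, 2441 of the 11354 tested genes differed in the Dex response. The counts were 514 for LPS, 311 for LPS + Dex against LPS, 66 for DAMPs and 234 for DAMPs + Dex against DAMPs. Without a filter on low values up to 118 genes were called for such a difference.

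Over the 12 group means of log2(FPKM + 1), the genes fell along a few shared patterns, given here as description, since the points share treatments and 1 genotype each. Nfkb1 and Nfkb2 had a Pearson r of 0.986 and Nfkbia and Tnfaip3 of 0.969, while Rela and Tnfaip3 had -0.957. Rela had a negative r with each of the other 9 genes. Relb had r between -0.127 (Rela) and 0.759 (Nfkbie), with 0.0861 for Tnfaip3. The smallest spans over the group means were those of Rela, 0.90, and Relb, 1.11. Among 8590 genes with a mean of at least 5 FPKM, the pattern of Tnfaip3 was most like those of Fscn1 (r = 0.989), Icosl (0.989) and Cd38 (0.988). That of Nfkbia was most like St7 (0.994), Zfp719 (0.984) and Cd38 (0.984), that of Nfkbiz like Gsap (0.990), Srebf2 (0.989) and Acsl1 (0.988), and that of Nfkb2 like Il1b (0.992), Slc15a3 (0.991) and Cd40 (0.989).

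The rest of the pathway was read from lists of its known components. Of 30 upstream signalling genes (receptors, adaptors and kinases), 14 rose and 5 fell with LPS in WT and 12 rose and 7 fell in the libraries labelled AMPKa1-/-, with medians of 0.31 and 0.07. Over all tested genes 19.9% and 20.2% were higher and 35.8% and 44.1% lower, with medians of -0.19 and -0.30, and the share of the list called in either direction was near that of all genes. Cd14, the LPS co-receptor, rose by 2.91 and 2.92, and Ikbke, an IκB kinase relative, by 1.93 and 1.88. Next came Birc3, a ubiquitin ligase of the TNF receptor pathway, in WT (1.61) and Irak2, a kinase of the receptor complex, in those labelled AMPKa1-/- (1.62). With Dex added to LPS, 11 of these fell in each genotype, and 0 rose in WT and 2 (Irak1 and Irak4, named after their values were seen) in those labelled AMPKa1-/-, with medians of -0.28 and -0.17, where 17.5% and 18.4% of all tested genes were lower and 16.6% and 19.3% higher. The largest were Traf6, the ubiquitin ligase below the receptor adaptors, at -1.75 and -1.41, Tlr4, the LPS receptor, at -1.55 and -1.36, and Rnf31, part of the linear ubiquitin ligase, at -1.29 and -1.28.

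Of 18 other brakes and atypical IκB genes tested (19 listed), 9 rose and 3 fell with LPS in WT and 9 rose and 5 fell in the libraries labelled AMPKa1-/-, with medians of 0.36 and 0.21, beside the same shares of 19.9% and 20.2% higher and 35.8% and 44.1% lower over all tested genes. Traf1 rose by 4.38 and 3.84, Irak3, a kinase-like inhibitor of receptor signalling, by 3.02 and 2.80, and Zc3h12a, an RNase that degrades inflammatory mRNAs, by 2.44 and 2.49. With Dex added, 8 of the 18 fell in WT and 6 fell and 1 rose (Itch, named after its value was seen) in those labelled AMPKa1-/-, beside 34.1% and 37.7% of all tested genes called in either direction. Those that fell included Traf1 (-1.26 and -1.20), Zc3h12a (-0.89 and -0.75), Tnip3 in WT (-0.71) and Pdlim2, which promotes the breakdown of RelA, in those labelled AMPKa1-/- (-0.88). Irak3 was at 177 and 134 FPKM in WT LPS and at 174, 164 and 118 FPKM in WT LPS + Dex, so the groups overlapped.

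Target genes of NF-κB moved furthest. Of 22 listed, 19 rose and 1 fell (Vcam1, -1.55, named after its value was seen) with LPS in WT and 19 rose in the libraries labelled AMPKa1-/-, with medians of 6.21 and 6.49 against -0.19 and -0.30 over all genes, of which 19.9% and 20.2% were higher. Il1b rose by 11.33 and 11.00, Il1a by 10.23 and 10.14 and Ccl22 by 9.78 and 9.98. With Dex added to LPS, 19 of 22 fell in each genotype, with medians of -4.73 and -5.17, beside 17.5% and 18.4% of all tested genes, and Cd80 (0.93, named after its value was seen) was higher in those labelled AMPKa1-/-. Cxcl10, a chemokine for T cells, had log2 changes of -9.07 and -8.17, Ccl22 of -8.54 and -8.37, and Il1a in those labelled AMPKa1-/- of -8.36. Ptgs2, the inducible cyclooxygenase, went from 1185 and 1200.3 FPKM with LPS to 3.54, 1.69 and 3.34 FPKM with LPS + Dex in WT, where vehicle was at 0.339, 0.371 and 0.624 FPKM. Beside these medians, those of the 10 genes here were -0.88 and -0.68, and Nfkbia and Tnfaip3 kept log2 values of 2.92 and 3.37 over vehicle in WT. The targets as a list kept a median of 1.45 over vehicle in WT, with 16 higher and 1 lower, beside 17.2% and 37% of all tested genes.

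Genes known to be induced by glucocorticoids rose with Dex in most cases. Of 10 listed, 8 rose and 1 fell (Errfi1, -0.53, named after its value was seen) with Dex added to LPS in WT, and 9 rose in the libraries labelled AMPKa1-/-, beside 16.6% and 19.3% of all tested genes. Tsc22d3, encoding GILZ, fell with LPS alone (-3.78 and -3.97) and rose by 5.91 and 5.58 when Dex was added. Fkbp5, a chaperone of the glucocorticoid receptor, rose by 5.55 and 5.40 with Dex added to LPS and by 0.62 with LPS alone in those labelled AMPKa1-/-. Ddit4, an inhibitor of mTORC1 signalling, rose by 3.24 and 2.87 with Dex added. With LPS alone Klf9, a transcription factor, was lower (-1.32 and -1.30), and Dusp1, a phosphatase of MAP kinases, rose by 1.47 in WT. With Dex alone 8 of the 10 rose in WT and 9 in those labelled AMPKa1-/-, beside 15.9% and 11.9% of all tested genes.

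**Figure D4:**
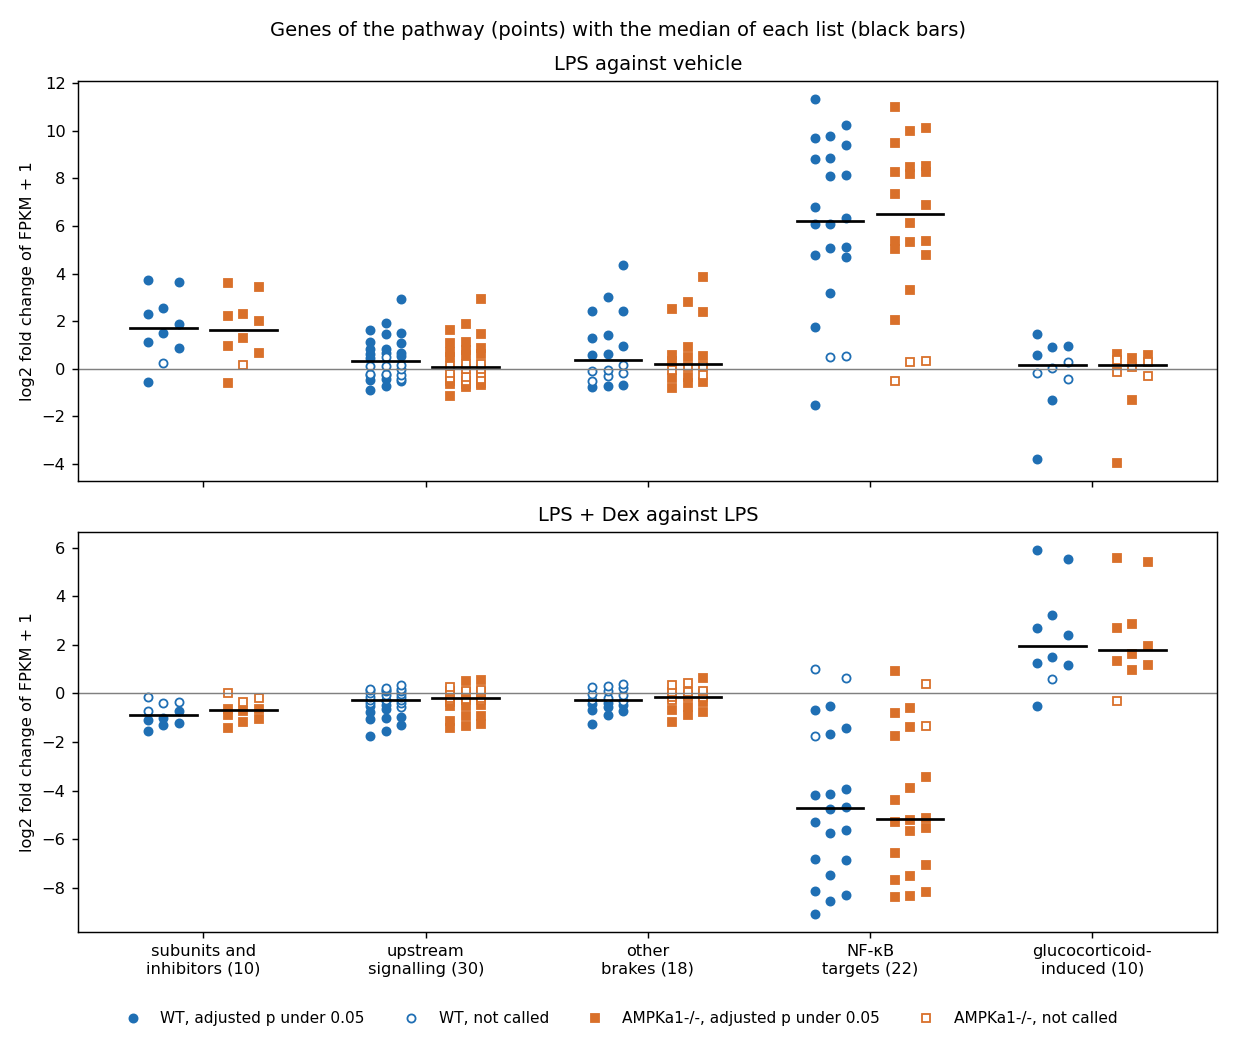
Log2 fold change on the log2(FPKM + 1) scale of single genes in 5 lists, first LPS against vehicle and then LPS + Dex against LPS, in WT (blue) and in libraries labelled AMPKa1-/- (orange), filled where the adjusted p was under 0.05, with bars at list medians. The WT medians of the NF-κB targets lie at 6.21 and -4.73, those of the 10 subunit and inhibitor genes at 1.70 and -0.88.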

How the data were processed

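RNA was extracted with TRIzol and sequenced by a commercial provider on an Illumina platform. The authors deposited FPKM values, 1 table per library. The submitters' processing notes name Bowtie2 2.2.3, TopHat2 2.0.12, HTSeq 0.6.1 and DESeq2 as tools and GRCm38 and mm10 as builds, without saying which step made the values. The 10 genes and the lists of pathway and marker genes were chosen with earlier results of these data known.

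Values were taken as log2(FPKM + 1), and genes with a mean of at least 1 FPKM over the 35 libraries were tested (11354 of 47069). One model with 12 groups was fitted with limma 3.58.1 (R 4.3.3, trended variance, 2-sided), with Benjamini-Hochberg adjustment over all genes tested and a threshold of 0.05. FPKM is not a count, and only 55.1% to 63.4% of the low values were whole multiples of 1 fragment within 0.001, so no count model was used. By the estimated library totals, the lowest number of fragments behind any value of the 10 genes was about 181 (Nfkbie). On the same estimate 1 fragment on 1 kb was worth 0.0313 to 0.0631 FPKM. Replicates of a group had r between 0.967 and 0.993 and no identical profiles. The study's methods describe replicates as cultures of individual mice.

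The settings also tried were no filter, a filter at 5 FPKM, a pseudocount of 0.1, median centring, quantile normalization, rescaling to one FPKM sum, smaller fits, a replicate block and leaving out each library. Replicate numbers come from the labels. Deviations of same-numbered libraries from their group means correlated above 0.1 in every one of 3 pairs for 4 comparisons labelled AMPKa1-/- (Dex, LPS and LPS + Dex against vehicle, and LPS + Dex against LPS) and for the genotypes in LPS + Dex. These meet the rule for pairing, and the block changed none of their calls. LPS + Dex against LPS in WT and the genotypes in LPS were also above 0.1, with 2 pairs each. The values given are without the block. Besides the 10 genes and Prkaa1, the text names the 3 called genes of each list with the largest change for LPS and for LPS + Dex against LPS, the 3 genes most like each of the 4 members of widest range, and the most abundant marker of each list, and says where a gene was named otherwise. Promoter windows came from RefSeq.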

Additional observations from a re-analysis of the deposited data

How the results depend on the processing

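Of the 102 calls of the 10 genes, 80 were kept under each of the other settings run (9, or 8 for the 2 calls between genotypes, which need both genotypes in the fit), 75 in every fit that left out 1 library, 73 in all of these, and 0 reversed. Of the 188 values not called, 20 were called under at least 1 of these settings, 11 of them after median centring. After rescaling to one FPKM sum, 3 genes instead of 5 were called in WT both for DAMPs + Dex against DAMPs and for DAMPs + Dex against vehicle. Leaving out 1 library in turn gave 7 to 9 genes for LPS against vehicle in WT and 8 to 9 in the libraries labelled AMPKa1-/-, 3 to 5 for Dex in each genotype, 6 to 7 and 5 to 7 for LPS + Dex against LPS, 6 to 7 for LPS + Dex against vehicle in each, 0 for DAMPs, 3 to 6 and 4 to 7 for DAMPs + Dex against DAMPs, 4 to 5 and 4 to 6 for DAMPs + Dex against vehicle, and 7 to 9 and 8 to 9 for LPS against DAMPs. The same fits gave 0 to 3 calls between genotypes, 0 for differences between genotype responses, and 3 to 6 (WT) and 2 to 4 genes for the Dex effect with LPS minus that without. Where WT LPS was left with 1 library, its spread was taken to be that of the remaining groups. The cause of these losses was not tested.

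With the replicate block no call was lost, and the counts of called genes were unchanged except in WT for Dex against vehicle, which went from 4 to 5 with Nfkb2 (adjusted p = 0.0363), and for the Dex effect with LPS minus that without, from 5 to 6 with Tnfaip3 (adjusted p = 0.024). Most comparisons did not meet the rule for pairing. The labels do not say whether same-numbered libraries came from the same mouse.

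Over all genes, fitting only the groups compared gave 2065 called genes instead of 3871 for LPS + Dex against LPS in WT and 1 instead of 228 for DAMPs in WT, which was 94 with only WT libraries in the fit. Between genotypes the same setting gave 19 instead of 49 genes in vehicle, 3 instead of 87 in LPS, 7 instead of 76 in LPS + Dex, 11 instead of 83 in DAMPs and 35 instead of 120 in DAMPs + Dex. Without a filter these were 92 in vehicle, 450 in LPS and 146 in LPS + Dex, and differences of the LPS, Dex, LPS + Dex, DAMPs and DAMPs + Dex responses were called for 118, 21, 75, 2 and 9 genes instead of 0. A filter at 5 FPKM gave 27 in vehicle and 54 in DAMPs, a pseudocount of 0.1 gave 41 in DAMPs, and the replicate block 83 in vehicle. The other settings called at most 6 genes for any response difference.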
